A study of Mus musculus with 4 samples.

Results

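The transcription factor *Trp53* (p53), its ubiquitin ligase *Mdm2* and 8 further genes of the p53 pathway (*Ccng1*, *Bax*, *Bbc3*, *Pmaip1*, *Sesn1*, *Phlda3*, *Trp53inp1* and *Gadd45a*) were followed in satellite cells of healthy and dystrophic mice. The 10 genes were chosen by name, with earlier results of these data known. Of them 8 were among the 8058 genes with a mean of at least 10 CPM (UMIs per 1000000, over the 4 libraries). *Bbc3* and *Pmaip1* lay below that minimum and are given apart, since the dystrophic libraries carried most of their UMIs.

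Each of the 4 groups was 1 10X Genomics 3′ library of hindlimb muscle stem cells sorted as ITGA7+/VCAM+/Lin-, from 2 pooled mice. B10 was strain C57/Bl10ScsSn at 15 weeks, *mdx* was C57BL/10ScSn-Dmdmdx at 11 weeks, DBA was DBA/2 at 13 weeks, and D2-*mdx* was D2.B10-Dmdmdx at 14 weeks. Both dystrophic strains carry the *mdx* allele of *Dmd*, in every cell. With 1 library per strain no test between groups was made, and strain, age, the pooled mice and the library cannot be told apart. All intervals below are exact 95% intervals that cover counting error only, and a ratio of at least 1.5-fold is used as a fixed mark of size.

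The cells clustered as myogenic numbered 4418 (B10), 2700 (DBA), 4819 (*mdx*) and 4186 (D2-*mdx*), with 30126637 to 40370775 UMIs per library, and the kept cells of any pair of libraries shared 3 to 8 barcodes. Their median UMIs per cell were 8424 (B10), 10294.5 (DBA), 6848 (*mdx*) and 6475.5 (D2-*mdx*). Of the B10 barcodes 4739 of 9931 had fewer than 1000 genes and were left out. The other libraries had 11 (DBA), 21 (*mdx*) and 17 (D2-*mdx*) such barcodes. Barcodes above 5000 genes, also left out, numbered 41 (B10), 129 (DBA), 214 (*mdx*) and 502 (D2-*mdx*). In the myogenic cells the satellite cell markers *Pax7*, *Myf5*, *Calcr* and *Chodl* summed to 2922 CPM (B10) and 2635 CPM (DBA). They were lower in the dystrophic libraries, at 2017 CPM (*mdx*) and 1599 CPM (D2-*mdx*), and none was at 0. Immediate-early genes, which muscle dissociation is known to induce, summed to 46066 CPM in B10 and to 36440 to 37929 CPM in the other libraries.

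In a resting cell p53 is made and degraded continuously, because MDM2 marks it for the proteasome. DNA damage or other stress stabilises the p53 protein, which then binds DNA as a tetramer and induces genes for cell-cycle arrest, repair, apoptosis and its own inhibition by *Mdm2*. The level of *Trp53* mRNA is therefore a poor guide to p53 activity, and its targets are the usual readout. In satellite cells p53 is known for its part in quiescence, activation and survival.

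The tetramer recognises a pair of 10-base half-sites. The half-site consensus was looked for in promoters from 250 bases before to 50 bases after the RefSeq start, and the letters read the same on both strands. Of all 32851 RefSeq promoters 8.36% held at least 1 half-site, as did 6 of the 11 promoters of members. By gene, 9.55% of all 27025 genes had a half-site in a promoter, and of the 8 members with a RefSeq promoter listed 6 did, while *Phlda3* and *Bbc3* did not. *Pmaip1* and *Trp53inp1* had no promoter listed. The windows below show the matches in capitals, on the gene's own strand in GRCm38.p6, because these are the promoters of the genes whose levels are compared. A match is a stretch of letters and not a measured binding site. The *Sesn1* window lies before a start inside the gene, which spans chr10:41809935-41908424, and 3′ counts do not show which start was used.
*Cdkn1a*, chr17:29090892-29090951: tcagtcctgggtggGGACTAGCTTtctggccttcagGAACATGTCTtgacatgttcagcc
*Mdm2*, chr10:117710910-117710969: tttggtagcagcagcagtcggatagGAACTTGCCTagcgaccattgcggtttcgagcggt
*Ccng1*, chr11:40755437-40755496: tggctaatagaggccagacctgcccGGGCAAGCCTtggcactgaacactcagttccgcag
*Bax*, chr7:45467065-45467124: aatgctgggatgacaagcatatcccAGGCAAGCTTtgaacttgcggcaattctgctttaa
*Sesn1*, chr10:41887241-41887300: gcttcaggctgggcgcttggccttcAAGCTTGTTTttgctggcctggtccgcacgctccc
*Gadd45a*, chr6:67037413-67037472: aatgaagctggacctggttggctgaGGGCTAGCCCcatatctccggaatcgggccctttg
*Trp53*, chr11:69580259-69580318: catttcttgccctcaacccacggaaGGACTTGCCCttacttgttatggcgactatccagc
*Cdkn1a*, the p21 inhibitor of cyclin-dependent kinases and not one of the 10, is shown for comparison. It was 1 of 24 promoters with a pair of half-sites at most 13 bases apart, and each of the 6 members had a single half-site.

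In the GRCm38 annotation *Trp53* lies on the plus strand at chr11:69580359-69591873 and *Mdm2* on the minus strand at chr10:117688875-117710758, and neither overlaps another gene. *Bax* overlaps *Gm45808* and *Sesn1* overlaps *9930024M15Rik* on the same strand, so their UMIs could have been split or lost. *Gadd45a* and *Cdkn1a* overlap a gene on the opposite strand. *Trp53* itself was lower in both dystrophic libraries. It measured 113 CPM (B10) and 111 CPM (DBA) in the healthy libraries and 89.1 CPM (*mdx*) and 91.8 CPM (D2-*mdx*) in the dystrophic ones, so that the healthy libraries lay together and above the dystrophic ones. The log2 ratio of *mdx* over B10 was -0.34 (-0.40 to -0.28) and that of D2-*mdx* over DBA was -0.27 (-0.34 to -0.20). Neither reached 1.5-fold, and within MuSC-like cells alone the ratios were -0.54 and -0.53.

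*Mdm2*, the feedback inhibitor, measured 31.1 CPM (B10) and 29.6 CPM (DBA) in the healthy libraries and 44.0 CPM (*mdx*) and 40.8 CPM (D2-*mdx*) in the dystrophic ones. The log2 ratios were 0.50 (0.39 to 0.60) in *mdx* over B10 and 0.47 (0.34 to 0.59) in D2-*mdx* over DBA. In *mdx*, however, 1 cell held 295 of the 1775 *Mdm2* UMIs. With the highest cell of each library left out the ratio of *mdx* over B10 was 0.24 (0.13 to 0.35), and that of D2-*mdx* over DBA was 0.45. *Ccng1*, which encodes cyclin G1, measured 15.4 CPM (B10) and 13.8 CPM (DBA) against 20.6 CPM (*mdx*) and 22.5 CPM (D2-*mdx*). Its ratios of 0.42 and 0.71 turned to -0.29 and -0.23 within MuSC-like cells, so its excess in the dystrophic libraries was not seen in that class.

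The pro-apoptotic genes *Bax*, *Bbc3* and *Pmaip1* were higher in both dystrophic libraries. *Bax*, whose product permeabilises the mitochondrial outer membrane, measured 77.1 CPM (B10) and 80.4 CPM (DBA) in the healthy libraries and 123 CPM (*mdx*) and 146 CPM (D2-*mdx*) in the dystrophic ones. Its log2 ratios were 0.68 (0.61 to 0.74) and 0.87 (0.79 to 0.94), and 0.21 and 0.42 within MuSC-like cells. *Bbc3* (PUMA) and *Pmaip1* (NOXA) encode BH3-only proteins that act upstream of BAX. *Bbc3* had 185 UMIs (4.64 CPM) in B10 and 119 (3.95 CPM) in DBA, and 631 (15.6 CPM) and 398 (11.4 CPM) in the dystrophic *mdx* and D2-*mdx* libraries. Its ratios were 1.75 (1.51 to 2.00) and 1.53 (1.23 to 1.84), and nearly as large within MuSC-like cells, at 1.74 and 1.43. *Pmaip1* had 49 and 21 UMIs in the healthy libraries and 357 and 295 in the dystrophic ones, in the same order, with ratios of 2.85 (2.41 to 3.31) and 3.60 (2.96 to 4.31). In the finer clustering described below, 124 (*mdx*) and 117 (D2-*mdx*) of these UMIs lay in differentiating myocyte-like cells. MuSC-like cells of high immediate-early expression held 34 (B10), 17 (DBA), 97 (*mdx*) and 48 (D2-*mdx*), and those of low expression 10, 2, 9 and 3. A UMI of *Pmaip1* was found in 0.973% of B10 cells and 0.704% of DBA cells, and in 4.30% of *mdx* and 4.52% of D2-*mdx* cells. A UMI of *Bbc3* was found in 3.76% of B10 and 3.96% of DBA cells, and in 11.1% of *mdx* and 8.31% of D2-*mdx* cells.

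*Phlda3* had the largest ratios of the members above the minimum. This gene encodes a PH-domain repressor of AKT. It measured 59.9 CPM (B10) and 34.5 CPM (DBA) in the healthy libraries and 153 CPM (*mdx*) and 125 CPM (D2-*mdx*) in the dystrophic ones, with log2 ratios of 1.36 (1.29 to 1.43) and 1.85 (1.76 to 1.95). *Gadd45a*, a stress-induced gene of arrest and repair, measured 187 CPM (B10) and 108 CPM (DBA) against 262 CPM (*mdx*) and 194 CPM (D2-*mdx*), with ratios of 0.49 (0.44 to 0.53) and 0.84 (0.78 to 0.90). The ratios of *Gadd45a* depended on the cells used. Within MuSC-like cells they were larger, at 0.97 and 1.39, and over all barcodes with at least 500 genes they were smaller, at 0.079 and 0.43, where D2-*mdx* over DBA no longer reached 1.5-fold. These 2 genes were also the members above the minimum that differed by 1.5-fold between healthy strains, with log2 ratios of DBA over B10 of -0.79 for each.

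*Sesn1* and *Trp53inp1* went the other way. *Sesn1*, a sestrin that restrains mTORC1, measured 47.1 CPM (B10) and 44.1 CPM (DBA) in the healthy libraries and 37.0 CPM (*mdx*) and 27.9 CPM (D2-*mdx*) in the dystrophic ones, with log2 ratios of -0.35 (-0.45 to -0.25) and -0.66 (-0.78 to -0.54). *Trp53inp1*, whose product takes part in autophagy and stress responses, measured 45.3 CPM (B10) and 47.7 CPM (DBA) against 27.6 CPM (*mdx*) and 22.7 CPM (D2-*mdx*). Its ratios were -0.72 (-0.82 to -0.61) and -1.07 (-1.20 to -0.95), and it was the lowest in D2-*mdx*.

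**Figure D1:**
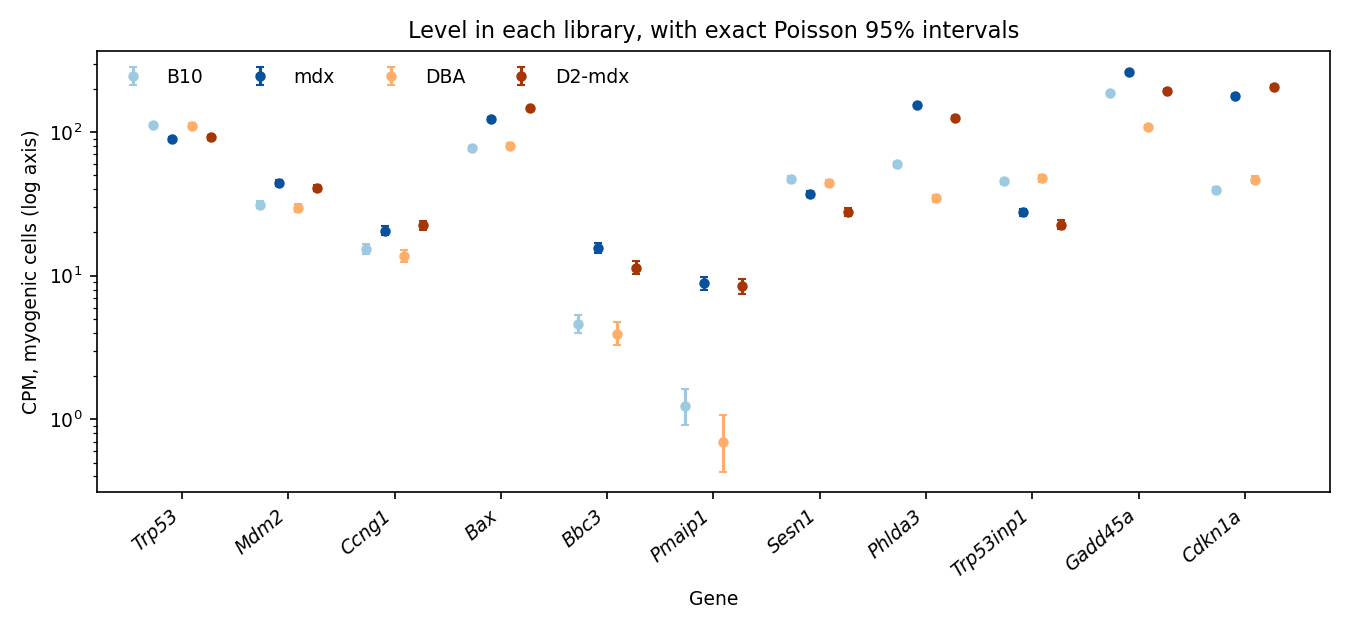
Level of the 10 p53 pathway genes and *Cdkn1a* in the myogenic cells of each library, in CPM on a log axis, 1 point per library with exact Poisson 95% intervals. *Bbc3*, *Pmaip1*, *Phlda3* and *Cdkn1a* separate the dystrophic from the healthy libraries most, and *Sesn1*, *Trp53inp1* and *Trp53* are lower in the dystrophic ones.

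Of the 8 members above the minimum, 2 were at least 1.5-fold higher in *mdx* than in B10 (*Bax* and *Phlda3*), beside 9.73% of all 8058 genes, and 1 was as much lower (*Trp53inp1*), beside 12.4%. In D2-*mdx* over DBA 4 were higher (*Bax*, *Phlda3*, *Gadd45a* and *Ccng1*), beside 11.9% of genes, and 2 were lower (*Sesn1* and *Trp53inp1*), beside 16.4%. The median log2 ratio of the 8 was 0.45 and 0.59, against -0.03 and -0.07 over all genes. The members were chosen with earlier results of these data known, so this contrast is a description. Between the dystrophic strains none of the 8 passed 1.5-fold in either direction, beside 3.85% of genes higher and 4.08% lower in D2-*mdx*. Between the healthy strains none was higher in DBA, beside 3.66%, and 2 were lower, beside 4.59%.

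The classes of cells also differed between libraries. At the clustering resolution of the study (0.2), cycling progenitor-like cells were 2.08% (B10) and 2.04% (DBA) of myogenic cells in health, and 7.70% (*mdx*) and 10.6% (D2-*mdx*) in dystrophy. An unnamed cluster led by *Cdkn1c*, *Myog* and *Btbd17* held 9.82% and 9.93% of the healthy cells, against 30.3% and 26.2% of the dystrophic ones. As levels are sums of UMIs, a class weighs by its UMIs and not by its cells. Cycling progenitor-like cells held 914183 of 30126637 UMIs in DBA and 6837564 of 34938649 in D2-*mdx*. The unnamed cluster held 5412305 of 39889414 UMIs in B10 and 18092827 of 40370775 in *mdx*. Most other myogenic cells were MuSC-like, with high or low expression of immediate-early genes. Summed proliferation markers (10 genes) moved with the ratios, at 77.9 CPM (B10) and 96.9 CPM (DBA) against 153 CPM (*mdx*) and 289 CPM (D2-*mdx*). So did 5 white blood cell markers, at 1.15 and 6.71 CPM against 19.7 and 86.9 CPM, with 1 of them at 0 in B10, and 5 myofibre markers, at 27.7 and 22.2 CPM against 83.7 and 210 CPM. Fibroblast or tenocyte markers (6 genes) measured 3.61 and 6.84 CPM against 11.8 and 62.1 CPM, 5 endothelial markers 2.18 and 2.39 CPM against 7.48 and 8.50 CPM, and 4 erythrocyte markers 275 and 298 CPM against 460 and 924 CPM, with none at 0. Vascular smooth muscle markers (5 genes) measured 411 and 511 CPM against 579 and 791 CPM, with 1 at 0 in B10 and 1 in DBA. Pericyte markers (5 genes) went the other way, at 351 and 289 CPM against 230 and 218 CPM. They include *Notch3*, which the study also reports as a quiescence gene of satellite cells, so this sum does not stand for pericytes alone. Glial markers (5 genes) measured 11.4 and 7.47 CPM against 11.2 and 16.9 CPM, and 5 Schwann markers 19.0 and 21.9 CPM against 23.1 and 20.3 CPM. The part of these cell types in the ratios was not tested. With each class given the same weight in every library, *Phlda3* and *Gadd45a* were the members 1.5-fold higher in each disease comparison (1.02 and 0.85 in *mdx* over B10, 1.61 and 1.15 in D2-*mdx* over DBA). *Bax* then lay below the mark in both, and *Trp53inp1* was past it in D2-*mdx* over DBA alone, at -0.85.

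**Figure D2:**
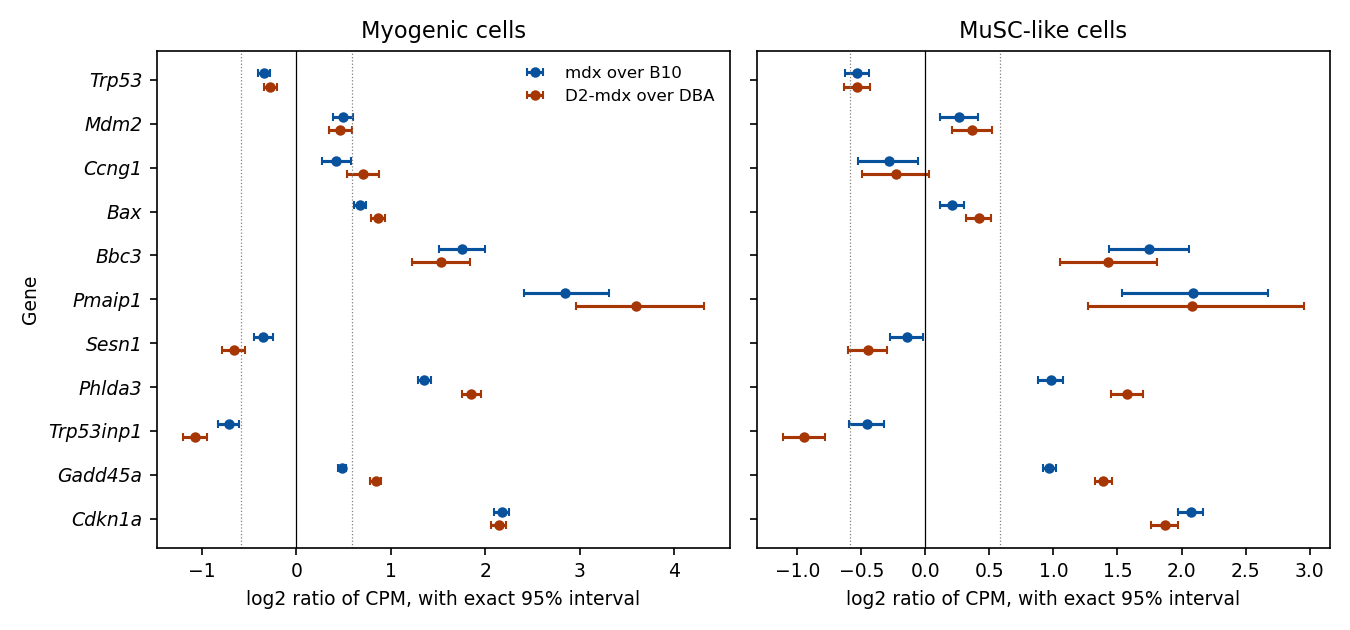
Log2 ratio of CPM, dystrophic over healthy library, on the B10 background (*mdx* over B10) and on the DBA background (D2-*mdx* over DBA), in all myogenic cells (left) and in MuSC-like cells alone (right), with exact 95% intervals and dotted lines at 1.5-fold. The ratio of *Ccng1* changes sign in MuSC-like cells, and those of *Bbc3*, *Pmaip1*, *Phlda3*, *Gadd45a* and *Cdkn1a* lie above 1.5-fold there. The horizontal scales of the panels differ.

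Other genes of the pathway were split. Of 34 further p53 targets 15 were above the minimum. In *mdx* over B10 3 of them were 1.5-fold higher, beside 9.73% of all genes, and 2 were lower, beside 12.4%. In D2-*mdx* over DBA 5 were higher, beside 11.9% of genes, and 1 was lower, beside 16.4%. The targets past the mark in the same direction in both comparisons were *Cdkn1a* (2.17 and 2.14), the polo-like kinase gene *Plk2* (2.02 and 2.12) and the RNA-binding protein gene *Zmat3* (0.71 and 0.59). The share of all genes past it in both comparisons is not given here. *Cdkn1a* measured 39.6 CPM (B10) and 46.7 CPM (DBA) in the healthy libraries and 179 CPM (*mdx*) and 206 CPM (D2-*mdx*) in the dystrophic ones. Of 23 regulators 17 were above the minimum. In *mdx* over B10 1 was higher and 2 were lower, and in D2-*mdx* over DBA 2 were higher and 3 lower, beside the same shares of genes. Past the mark in the same direction in both comparisons were 2 of the regulators. *Cdkn2a*, whose locus encodes the MDM2 inhibitor ARF as well as p16, went from 46 and 69 UMIs in B10 and DBA to 2952 and 3762 in *mdx* and D2-*mdx*, with ratios of 5.99 and 5.55, and the transcripts of ARF and p16 are counted together. It lay below 10 CPM in both healthy libraries and passed the minimum only through the dystrophic ones. Its place among the higher regulators was thus set by the minimum and is a description. The acetyltransferase gene *Ep300* was lower, at -0.81 and -0.78.

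Across the classes of myogenic cell all 8 members above the minimum ranged at least 1.5-fold, but so did 60.1% of all genes. *Mdm2* passed only through the 1 *mdx* cell: its range of 1.59-fold was 1.18-fold without it. These classes were cut from the expression of the same cells, and 5 of the 10 members were among the variable genes used, so the levels are a description. At resolution 0.2 differentiating and DMD-enriched cells fell into the 1 unnamed cluster. The planned finer clustering (0.4) separated them, and the levels below are from that clustering in *mdx* and D2-*mdx*, where each class but the immunomyoblast-like one had at least 50 cells in both libraries. It also set a cluster led by *Esm1*, *Fosl1* and *Tnc* apart from the cycling progenitor-like cells. The latter were then 0.113% (B10), 0.889% (DBA), 3.24% (*mdx*) and 7.93% (D2-*mdx*) of myogenic cells.

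*Pmaip1* was highest in differentiating myocyte-like cells, at 38.8 CPM (32.3 to 46.3) in *mdx* and 47.9 CPM (39.6 to 57.4) in D2-*mdx*, against 1.90 and 0.886 CPM in MuSC-like cells of low immediate-early expression. *Cdkn1a* was highest in the same cells, at 331 and 517 CPM. *Phlda3* was lowest there, at 77.9 and 54.0 CPM, and reached 219 and 186 CPM in DMD-enriched-like cells. Of the *Pmaip1* UMIs of differentiating myocyte-like cells, the top 5 cells held 33.1% in *mdx* and 44.4% in D2-*mdx*. The 50 differentiating myocyte-like cells of DBA had no *Pmaip1* UMI.

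*Bax* was highest in cycling progenitor-like cells, at 231 CPM in *mdx* and 234 in D2-*mdx*, and so was *Ccng1*, at 50.2 and 50.7 CPM. *Trp53* reached 144 and 157 CPM in an unnamed cluster led by *Esm1*, *Fosl1* and *Tnc*, and 128 and 121 CPM in cycling progenitor-like cells. In that unnamed cluster *Trp53inp1* was at 3.49 and 3.57 CPM and *Sesn1* at 14.0 and 14.3 CPM. In that cluster *Trp53* was thus high while *Sesn1* and *Trp53inp1* were low.

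*Gadd45a* was highest in MuSC-like cells of high immediate-early expression, at 456 CPM in *mdx* and 335 in D2-*mdx*, and measured 78.3 and 67.3 CPM in MuSC-like cells of low immediate-early expression. The same order held in the healthy libraries, at 225 against 63.8 CPM in B10 and 136 against 38.7 CPM in DBA. The part of tissue dissociation in this difference was not tested.

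*Mdm2* measured 152 CPM in the cycling progenitor-like cells of *mdx* and 48.8 CPM in those of D2-*mdx*. Of the 355 *Mdm2* UMIs behind the *mdx* value 295 came from 1 of 156 cells, and the level without it was 25.9 CPM (19.8 to 33.3). Without that cell cycling progenitor-like cells had the lowest level of the *mdx* classes, of which immunomyoblast-like cells were the highest at 42.9 CPM (28.9 to 61.2, from 30 UMIs). In D2-*mdx*, with no cell left out, cycling progenitor-like cells had the highest level. Of their 259 *Mdm2* UMIs 24 came from 1 of 332 cells, and the level without that cell is not given here. The lowest D2-*mdx* level was that of MuSC-like cells of low immediate-early expression, at 31.0 CPM (25.4 to 37.5). The order of the classes thus differed between the dystrophic libraries when the highest cell was left out of *mdx* alone. The D2-*mdx* order without its highest cell is not given here, and the top *mdx* rank is uncertain because its interval is wide.

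**Figure D3:**
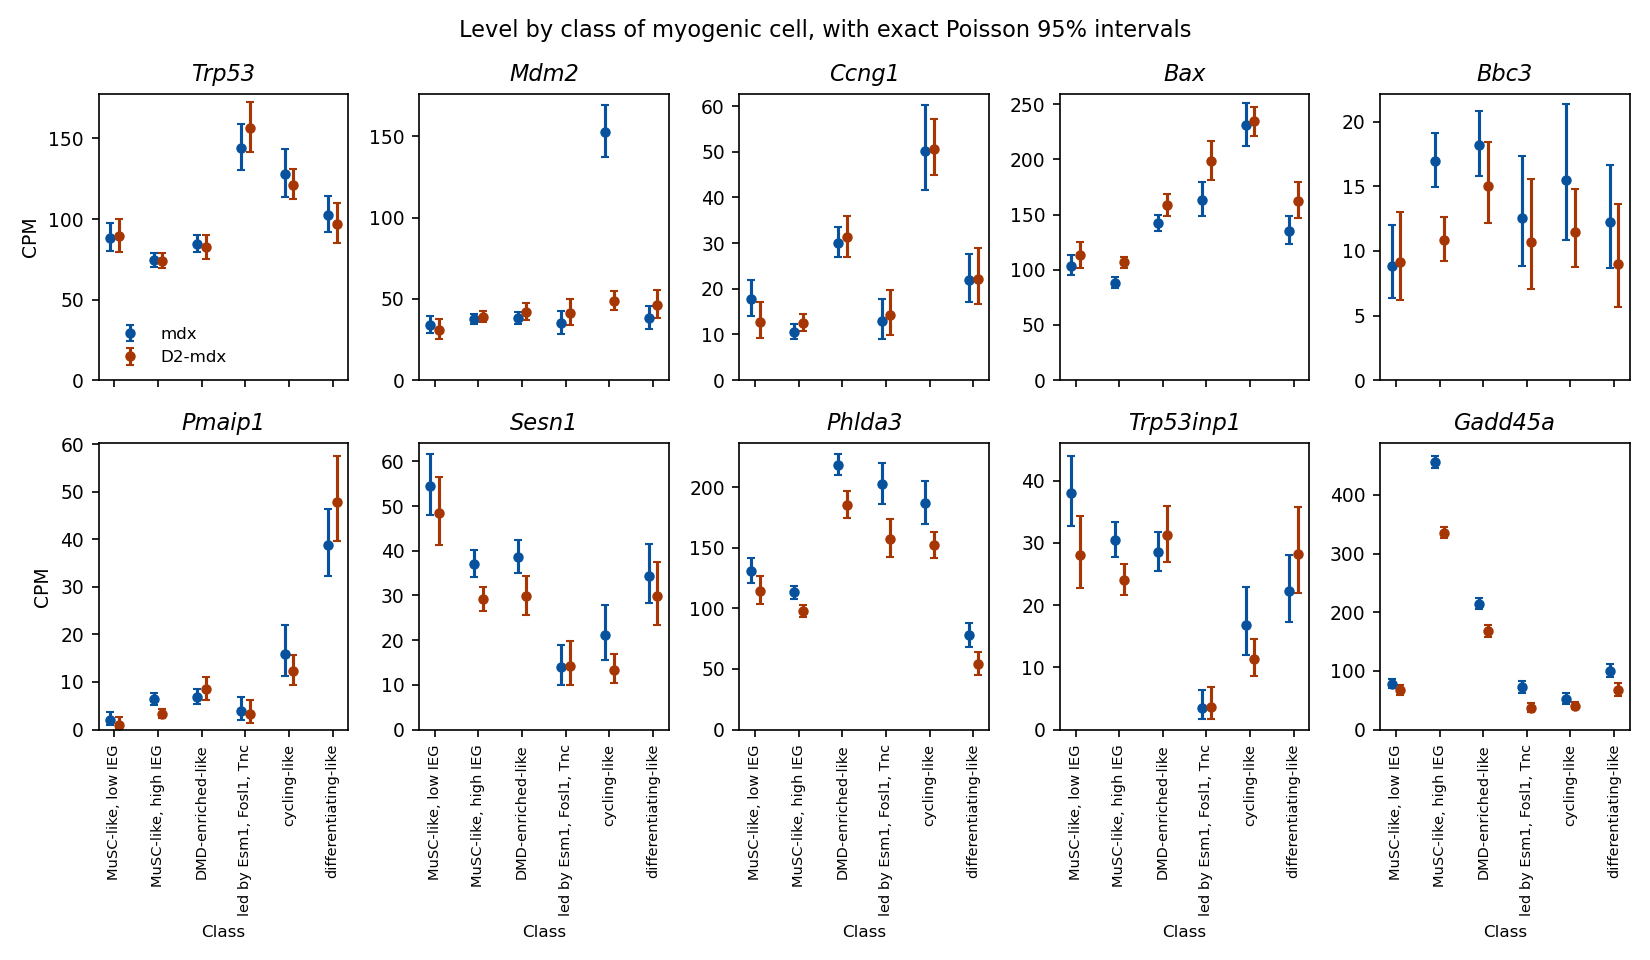
CPM of each p53 pathway gene by class of myogenic cell in *mdx* (blue) and D2-*mdx* (brown), with exact Poisson 95% intervals, IEG standing for immediate-early genes. *Pmaip1* peaks in differentiating-like, *Bax* and *Ccng1* in cycling-like and *Gadd45a* in high immediate-early cells, and the *mdx* value of *Mdm2* in cycling-like cells rests on 1 cell with 295 UMIs.

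Over the 18 sums of a class and a library with at least 50 cells (resolution 0.2), *Sesn1* and *Trp53inp1* had the most similar levels of any pair of members (Pearson r of log2(CPM + 1) = 0.95), and *Bax* and *Trp53inp1* the most opposed (r = -0.84). *Trp53* had r = -0.29 with *Sesn1* and -0.31 with *Trp53inp1*. Among the genes most like *Trp53* were *Adsl* and *Mettl1* (r = 0.97 and 0.96). Those most like *Ccng1* were *Amacr*, *Nme4* and *Mrpl45* (0.89, 0.89 and 0.88). Those most like *Mdm2* were *Phc2*, *Nras* and *Fam129b* (0.83, 0.82 and 0.81), with the high cell included. Sums of 1 library share its depth and mice, so these are descriptions.

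To ask whether the members accompany *Cdkn1a* in single cells, each cell was thinned to 3000 UMIs, since a deeper cell has more of every gene. At that depth 7.15% of B10 cells (313 of 4379) had a *Cdkn1a* UMI, 28.4% of *mdx* cells (1370 of 4819), 9.70% of DBA cells (262 of 2700) and 31.5% of D2-*mdx* cells (1319 of 4186). Without thinning the shares were 14.2%, 44.6%, 23.6% and 49.1%. In pericyte-like cells of the same libraries, thinned alike, they were 3.12%, 5.76%, 1.66% and 5.44%. The 2.65% of B10 MuSC-like cells of low immediate-early expression was no higher than the pericyte-like share. Only B10 lost cells to thinning, 39 in all.

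None of the 8 members was 1.5-fold higher in *Cdkn1a*-positive than in negative cells of all 4 libraries, beside 0.0372% of genes, and none was as much lower, beside 0%. The genes that were higher numbered 3, named here after their values were seen: *Myog*, *Arpp21* and *Tubb6*. *Gadd45a* came closest among the members, with log2 ratios of 0.52 (0.32 to 0.72) for B10 and 0.32 (0.00 to 0.62) for DBA, and of 0.50 (0.41 to 0.59) for *mdx* and 0.37 (0.26 to 0.47) for D2-*mdx*. The negative class held cells whose *Cdkn1a* UMIs were lost in thinning. Per 1000 thinned B10 cells *Gadd45a* had 534 UMIs at 0 *Cdkn1a* UMIs and 1051 at 3 or more. These values were 812 and 1408 in *mdx* and 634 and 1118 in D2-*mdx*. In DBA they were 309 and 125, the latter from 2 UMIs in 16 cells. Immediate-early UMIs per cell were also higher in *Cdkn1a*-positive cells of every library, at 174 against 131 in B10 and 149 against 134 in D2-*mdx*. Within bins of immediate-early UMIs the ratios of *Gadd45a* were 0.20 and 0.08 for B10 and DBA, and 0.28 and 0.27 for *mdx* and D2-*mdx*.

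*Bax* was higher in positive cells of both dystrophic libraries, with log2 ratios of 0.21 (0.06 to 0.37) in *mdx* and 0.23 (0.08 to 0.38) in D2-*mdx*, and *Phlda3* had 0.15 (0.01 to 0.29) and 0.16 (0.00 to 0.32). These differences were not seen in MuSC-like cells: thinned anew on their own, they gave -0.23 and -0.24 for *Bax* and 0.05 and -0.08 for *Phlda3*. In the first draw *Bax* had 0.00 (-0.28 to 0.29) and 0.09 (-0.16 to 0.34) in MuSC-like cells of high immediate-early expression, and a second draw over all myogenic cells gave 0.09 and 0.14. The intervals do not cover this variation between draws, and the second draw of *Phlda3* is not given here. *Mdm2* had a ratio of 0.54 (0.28 to 0.81) in D2-*mdx* and 0.03 (-0.24 to 0.29) in *mdx*. The *mdx* cell with 295 *Mdm2* UMIs had no *Cdkn1a* UMI, and without it the *mdx* ratio was 0.30 (0.03 to 0.57). *Pmaip1*, from 44 and 43 UMIs in positive cells, had ratios of 0.84 (0.25 to 1.42) in *mdx* and 1.42 (0.74 to 2.10) in D2-*mdx*. Compared within the classes of resolution 0.2 they were 0.68 and 1.19, but those classes do not set differentiating cells apart. MuSC-like cells of high immediate-early expression alone gave 0.16 (-0.83 to 1.10) in *mdx* and 0.21 (-1.23 to 1.54) in D2-*mdx*. Those of low immediate-early expression gave 2.46 (-0.44 to 5.36) in *mdx*, from 3 UMIs in positive cells.

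*Trp53* did not separate the cells: its ratios were 0.00 (-0.31 to 0.30) for B10 and 0.15 (-0.18 to 0.45) for DBA, and 0.06 (-0.12 to 0.24) for *mdx* and -0.01 (-0.20 to 0.18) for D2-*mdx*. In all 4 libraries the intervals held 0 and ended below 1.5-fold. *Sesn1* and *Trp53inp1* had intervals that held 0 in every library too. In B10 and DBA the positive cells were few, and *Bbc3* rested on 5 and 3 UMIs and *Pmaip1* on 1 and 2, so a difference of those genes was not detectable there.

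**Figure D4:**
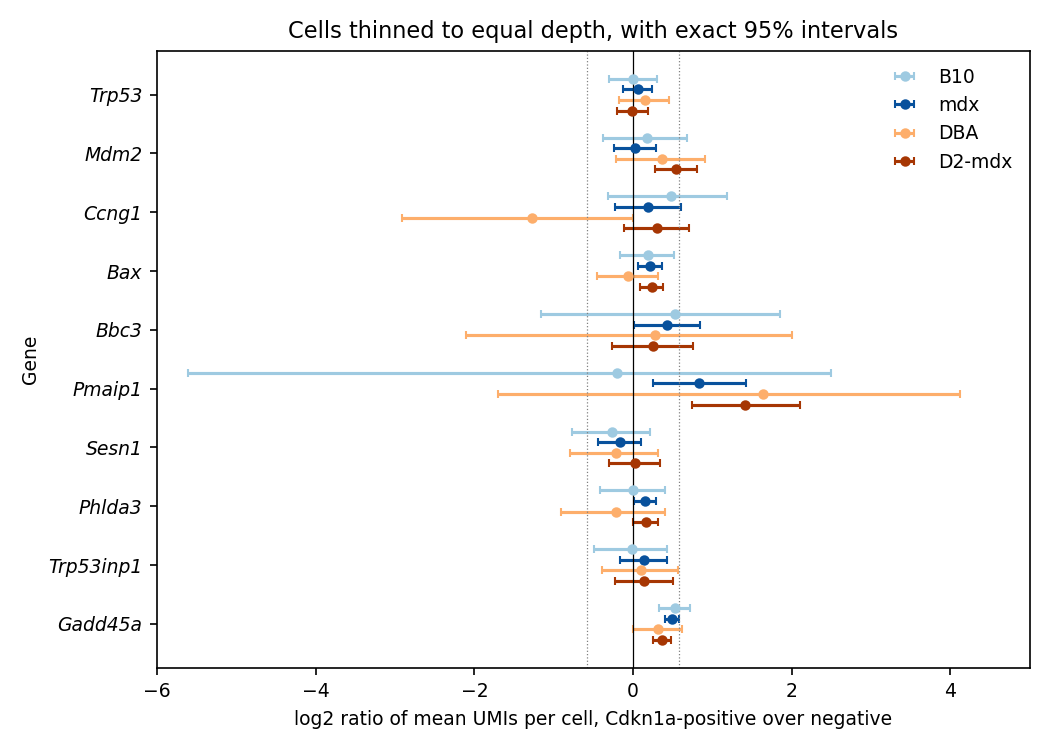
Log2 ratio of mean UMIs per cell, *Cdkn1a*-positive over *Cdkn1a*-negative cells thinned to 3000 UMIs, for each p53 pathway gene and library, with exact 95% intervals and dotted lines at 1.5-fold. No gene passes the same line in all 4 libraries, *Gadd45a* lies above 0 in each, and the intervals of *Pmaip1* and *Bbc3* in B10 and DBA are wide.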

How the data were processed

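Per the labels and the methods of the study, 10X libraries were made from sorted satellite cells and processed by the authors with Cell Ranger 3.0.1 on mm10. The deposited files hold raw UMI counts per gene and cell; the annotation release is not given in the sources used here. Barcodes needed 1000 to 5000 detected genes and a mitochondrial share of 8% or less, and the highest Scrublet scores (scanpy 1.11.5) were removed as doublets, at a rate of 0.008 per 1000 cells. The 4 libraries were integrated in Seurat 5.3.0 (CCA, 2000 genes, 30 dimensions) and clustered at resolution 0.1, and myogenic cells again at 0.2 and, as an alternative, 0.4. Clusters were named from markers, and those led by markers of another class stayed unnamed. UMIs were summed per library and class. Intervals are exact Poisson for levels, Clopper-Pearson for shares, and for ratios follow from the binomial share of UMIs. Scripts were tested on simulated data. The members and lists were chosen with earlier results of these data known. Named genes were the 10 members, *Cdkn1a*, further pathway genes past 1.5-fold in both disease comparisons or in *Cdkn1a*-positive cells of all 4 libraries, and the 3 genes most like *Trp53*, *Mdm2* and *Ccng1*, of which 1 is not reported here. Scaling (edgeR 4.0.16 TMM, DESeq2 1.42.0 size factors), filters, classes, thinning and doublets were varied.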

Additional observations from a re-analysis of the deposited data

How the results depend on the processing

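No paired analysis was possible because the groups compared had 1 library each and so shared fewer than 2 replicate numbers, and a fit over all 4 libraries with the strain background as a block was not run. The causes of the changes below were not tested, beyond the genes or cells that a setting leaves out. With classes given fixed weights, 0 members were 1.5-fold lower in *mdx* over B10, and 2 were higher and 1 lower in D2-*mdx* over DBA. MuSC-like cells alone gave 0, 2 and 1 as well. A minimum of 50 CPM left 0 lower members in either comparison, no minimum gave 4 higher in *mdx* over B10, and a mean over cells gave 1 lower in D2-*mdx* over DBA. All barcodes with at least 500 genes gave 1 member lower in D2-*mdx* over *mdx*. The ratio of *Ccng1* reversed from 0.71 to -0.23 in MuSC-like cells of D2-*mdx* over DBA. From 5 UMIs in *Cdkn1a*-positive DBA cells it reversed from -1.27 to 0.056 with another seed and to 0.12 with at most 5% mitochondrial UMIs. Added after seeing the data, leaving out the *mdx* cell with 295 *Mdm2* UMIs left every count of members within 1.5 times, and so did the use of *mdx* and D2-*mdx* alone for the classes. No count in *Cdkn1a*-positive cells or across classes moved by more under the alternatives run. Of the members' ratios in the disease comparisons, 15 moved and 1 stayed the same with fixed weights of the classes. With a mean over cells 12 moved and 4 stayed the same. *Gadd45a* moved most often among the members, in 26 of its values. At 3000 UMIs per cell the ratios of *Bbc3* and *Pmaip1* in healthy libraries rest on 1 to 5 UMIs in *Cdkn1a*-positive cells.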

Other observations

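Outside the myogenic cells, the Schwann-like cells of *mdx* (79 cells) had the highest *Cdkn1a* level of any cell type with at least 50 cells, at 1608 CPM, and 94.9% of them had a *Cdkn1a* UMI at 3000 UMIs (87.5 to 98.6). In the same cells *Phlda3* measured 206 CPM (165 to 254) and *Sesn1* 93.4 CPM (66.4 to 128), both the highest of the types. *Trp53* was the lowest, at 26.4 CPM (13.2 to 47.2, from 11 UMIs). These 3 ranks are uncertain, because each interval overlaps that of another type. *Phlda3* in myoblast or myocyte-like cells of *mdx*, for example, measured 186 CPM (173 to 200). White blood cell-like cells of *mdx* and D2-*mdx* had 54.9 and 21.6 CPM of *Pmaip1*. Pericyte-like cells had 0.132 CPM of *Pmaip1*, as a mean of 4 libraries.

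The *mdx* cell with 295 *Mdm2* UMIs had 12307 UMIs in 1898 genes. *Mdm2* made up 23970 CPM of that cell, and the highest count in any other cycling progenitor-like cell of the library was 6. Of the other 6 genes above 10 CPM within 1000000 bases of *Mdm2* on chromosome 10, *Rap1b* had 10 UMIs (813 CPM, against 98.4 in the rest of the class), *Cpsf6* 5 (406 against 70.8), *Cct2* 28 (2275 against 442), *Rab3ip* 2 (163 against 19.9), *Yeats4* 1 (81.3 against 71.2) and *Lyz2* 0. The highest counts in any other cell of the class were 7 (*Rap1b*), 5 (*Cpsf6*), 34 (*Cct2*), 2 (*Rab3ip*), 7 (*Yeats4*) and 2 (*Lyz2*). Of these neighbours only *Rap1b* was thus above every other cell of the class. The *mdx* cell had 6 *Trp53* UMIs. These values were looked up after the *Mdm2* count was seen, and they are those of a single cell.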
